A study of Mus musculus with 2 samples.

Results

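Expression of p53 and 9 of its target genes was compared between regenerating livers of WT and PPARβ-null (KO) mice. The 10 genes, Trp53, Mdm2, Ccng1, Phlda3, Bax, Bbc3, Pmaip1, Sesn1, Sesn2 and Btg2, were taken by symbol from the 33224 gene symbols of the deposited FPKM table, and all 10 were found there. FPKM counts fragments relative to the length of the exons and to all mapped fragments of the library, so levels of different genes can be compared per length. The hepatic RNA was of male C57BL/6 mice, labelled as 4 months old, and was collected 48 hr after partial hepatectomy (PH). Both genotypes had PH, and unoperated livers were not analysed here. KO mice lack PPARβ, a nuclear receptor encoded by Ppard, and how the allele was made is not given in the sources used here. Each genotype was represented by 1 library, and the sources used here do not give whether a library came from a single mouse or a pool. No value therefore carries an error between mice, and no test of the genotypes was possible.

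The transcription factor p53 is held at a low level by Mdm2, a ubiquitin ligase that marks it for degradation. After DNA damage and other stress p53 accumulates and binds to its response elements, and it then activates genes for cell cycle arrest, apoptosis, DNA repair and metabolism, including Mdm2 itself. Since p53 is controlled mainly at the protein level, the mRNA of Trp53 and that of its targets are separate readouts. In the liver, p53 and its targets have been studied during regeneration after PH, when quiescent hepatocytes enter the cell cycle.

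In the libraries as deposited, all 10 genes were lower in KO, and 8 of them by more than 1.5-fold. The largest ratio was that of Phlda3, at 15.7-fold lower in KO, followed by Pmaip1 (3.60-fold) and Ccng1 (2.10-fold). Trp53 itself was 1.22-fold and Btg2 1.04-fold lower in KO, and these were the 2 genes within the 1.5-fold line. Most genes in the table were lower in KO, too, so each count is set against that of all genes in the paragraphs on the pathway as a whole.

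To show sequences that resemble a p53 response element near these genes, the p53 consensus was searched on NCBIM37. It was searched as 2 copies of a 10-base motif without a spacer, so copies set apart by a spacer were not searched. The search covered 3000 bases on each side of the annotated start of 22234 protein-coding genes. The start was that of the longest protein-coding transcript, which can lie inside the locus, as for Cdkn1a and Bax. The Cdkn1a locus begins at 29227924, shortly after its match. A match was allowed 2 mismatches in its 20 bases, but none at the C in position 4 and the G in position 7 of either copy. The motif reads the same on both strands, so a single search covers both. A match was found for 5.94% of these genes, for 3 of the 10 genes, namely Ccng1, Bax and Pmaip1, and for 12 of 45 other p53 target genes. A match is a description of the sequence, not evidence of binding. As deposited, KO was below WT in 8 of the 12 and above WT in 4, and after centring in 6 and 6. Of all genes averaging 0.1 FPKM or more, 74.8% were lower in KO by any amount as deposited. Gtse1, among those above WT both times, is on a row joint with Ttc38, so its value is not of Gtse1 alone. The sequences of Ccng1 and Bax are shown because they are matches in the 10 genes themselves, and that of Pmaip1 is not shown here. Those of Zmat3 and Eda2r (lower in KO) and of Cdkn1a and Fas (higher in KO) are shown as examples of both directions, chosen after their values were seen. All were read from NCBIM37 (mm9), 5′ to 3′ on the strand of the gene, with the matched 20 bases in capitals.
Ccng1 upstream, 170 bases before the start, chr11:40568944-40569003, minus strand: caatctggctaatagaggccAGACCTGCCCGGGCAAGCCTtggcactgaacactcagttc
Ccng1 intron, base 357 after the start, chr11:40568418-40568477, minus strand: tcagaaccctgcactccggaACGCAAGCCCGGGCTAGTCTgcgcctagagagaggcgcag
Bax exon, base 183 after the start, chr7:52721944-52721963, minus strand: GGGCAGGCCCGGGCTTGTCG
Zmat3 intron, base 1329 after the start, chr3:32263233-32263292, minus strand: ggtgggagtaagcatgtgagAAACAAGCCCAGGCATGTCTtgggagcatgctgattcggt
Cdkn1a upstream, 2844 bases before the start, chr17:29227853-29227912, plus strand: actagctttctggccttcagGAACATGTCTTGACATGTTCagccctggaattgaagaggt
Eda2r intron, base 664 after the start, chrX:94571853-94571912, minus strand: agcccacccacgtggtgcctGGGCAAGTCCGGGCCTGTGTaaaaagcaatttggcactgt
Fas intron, base 1706 after the start, chr19:34366834-34366893, plus strand: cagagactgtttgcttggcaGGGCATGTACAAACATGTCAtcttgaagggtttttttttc

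The match of Zmat3 had 0 mismatches, those of Ccng1 and Cdkn1a had 1 each, and those of Bax, Pmaip1, Eda2r and Fas had 2. Ccng1, Bax, Zmat3 and Eda2r were lower in KO, whereas Cdkn1a and Fas were higher, with the values given further on.

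The deposited table gave 38016 loci. From the low values of single-exon genes, 1 FPKM on 1 kb of transcript was estimated to equal 55.5 WT fragments or 59.1 KO fragments. From these depths and the length of the longest protein-coding transcript, the fragments behind each gene were estimated, and each WT/KO ratio was given an exact binomial 95% confidence interval (CI). Such intervals cover counting error only. Ppard, the targeted gene, had 2.67 FPKM in WT against 2.42 FPKM in KO, a ratio of 1.10 (95% CI 0.970 to 1.26), so its whole-locus mRNA did not separate the libraries. Which part of the gene is deleted is not given in the sources used here, so this value does not check the genotype labels. Hepatocyte markers were abundant in both libraries, with a summed FPKM of 14312 in WT and 15821 in KO over 6 genes. No exon of the 10 genes overlapped an annotated exon of another gene, and the pseudogene Trp53-ps was listed at 0 in both libraries.

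**Figure D1:**
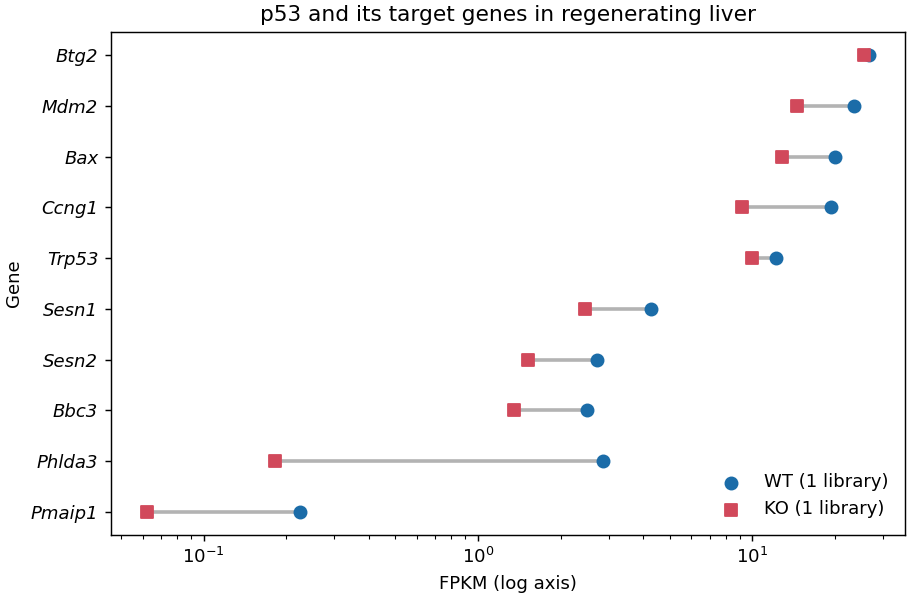
FPKM (x axis, log scale) of p53 and 9 target genes (y axis) in the WT library (circles) and the KO library (squares), with a grey line joining the values of a gene. The KO square lies to the left of the WT circle for every gene, with the longest line for Phlda3 (2.85 in WT and 0.182 in KO) and the shortest for Btg2 (26.5 and 25.5).

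Trp53 encodes p53 itself and lies on chromosome 11 (69393861 to 69405375, plus strand). It was at 12.2 FPKM in WT against 9.98 FPKM in KO, which rested on about 1263 and 1101 fragments. The WT/KO ratio was 1.22 (95% CI 1.13 to 1.33). The mRNA of p53 was thus slightly lower in KO, and the median gene averaging 0.1 FPKM or more was close to it, with a WT/KO of 1.19.

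The targets that act back on p53 or on growth signaling were lower in KO by unequal amounts. Mdm2 (chromosome 10, 117125944 to 117147814, minus strand), the ubiquitin ligase of p53, had 23.4 FPKM in WT against 14.5 FPKM in KO. Its ratio was 1.61 (95% CI 1.54 to 1.69). Ccng1 (chromosome 11, 40562054 to 40568813, minus strand) encodes cyclin G1, which recruits a phosphatase to Mdm2. It was at 19.3 FPKM in WT against 9.17 FPKM in KO, a ratio of 2.10 (95% CI 1.99 to 2.22). In WT the level of Ccng1 was above that of Trp53, and in KO it was below.

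Phlda3 (chromosome 1, 137662696 to 137665713, plus strand) encodes a small PH domain protein that competes with Akt for membrane lipids and so restrains Akt. It was at 2.85 FPKM in WT against 0.182 FPKM in KO, or about 227 and 15.4 fragments. The WT/KO ratio of 15.7 had a 95% interval of 9.57 to 29.3. Only 0.986% of the 15727 genes averaging 0.1 FPKM or more had a lower log2 KO/WT than Phlda3. The other 9 genes had ratios between 1.04 and 3.60, so Phlda3 stood apart from the rest of the group.

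The target genes that promote apoptosis encode members of the Bcl2 family. Bax (chromosome 7, 52717065 to 52722268, minus strand), which forms pores in the outer mitochondrial membrane, had 19.98 FPKM in WT against 12.8 FPKM in KO, a ratio of 1.56 (95% CI 1.42 to 1.71). Bbc3 (chromosome 7, 16894920 to 16903554, plus strand), also called Puma, is a BH3-only protein that frees Bax from its inhibitors. It was at 2.49 FPKM in WT against 1.36 FPKM in KO, and the ratio was 1.84 (95% CI 1.497 to 2.28). Pmaip1, or Noxa, another BH3-only protein, had by far the lowest level of the 10 genes, with 0.224 FPKM in WT against 0.0622 FPKM in KO. About 32.9 and 9.73 fragments stood behind these values, and the 95% interval of its ratio of 3.60 was correspondingly wide, from 1.69 to 7.997. All 3 pro-apoptotic targets were thus lower in KO, and the intervals of Bax and Bbc3 overlapped.

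The sestrins restrain mTORC1 signaling and protect cells from oxidative stress. Sesn1 (chromosome 10, 41530380 to 41628230, plus strand) had 4.26 FPKM in WT against 2.45 FPKM in KO, with a ratio of 1.74 (95% CI 1.54 to 1.95). Sesn2 (chromosome 4, 132047947 to 132066416, minus strand) had 2.71 FPKM in WT against 1.53 FPKM in KO, with a ratio of 1.78 (95% CI 1.54 to 2.05). These paralogs gave almost the same ratio, and a difference between them was not detectable at this depth. Btg2 (chromosome 1, 135971747 to 135975697, minus strand), an antiproliferative gene that is also an early response gene, was the most abundant of the 10 in both libraries. It was at 26.5 FPKM in WT against 25.5 FPKM in KO, and its ratio of 1.04 had a 95% CI that included 1 (0.994 to 1.08). The intervals of the other 9 genes lay above 1. The share of all genes with such an interval was not computed. The median gene averaging 0.1 FPKM or more had a WT/KO of 1.19, which lies within the interval of Trp53.

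The order of levels in WT was Btg2, Mdm2, Bax, Ccng1, Trp53, Sesn1, Phlda3, Sesn2, Bbc3 and Pmaip1. In KO the first 3 and the last gene were the same, Trp53 passed Ccng1, and Phlda3 moved below Sesn2 and Bbc3. With 1 library per genotype, the spread that would tell neighbours in this order apart was not measured.

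For the comparison with all genes, log2 KO/WT was computed from FPKM + 0.1, which understates the difference of genes with low values, and only genes averaging 0.1 FPKM or more were kept. All 10 genes passed this filter, and 9 of them, all but Pmaip1, averaged 1 FPKM or more. More than 1.5-fold lower in KO were 8 of the 10 genes (80.0%), against 22.9% of the 15727 genes. More than 2-fold lower on this scale were 2 genes, Phlda3 and Ccng1, against 9.94% of all genes, and Pmaip1 fell just short of this line with a log2 KO/WT of -0.998. None of the 10 was higher in KO by more than 1.5-fold, as were 4.93% of all genes. Being lower in KO by any amount, as all 10 were, was shared by 74.8% of all genes. The median log2 KO/WT was -0.78 over the 10 genes and -0.25 over all genes.

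**Figure D2:**
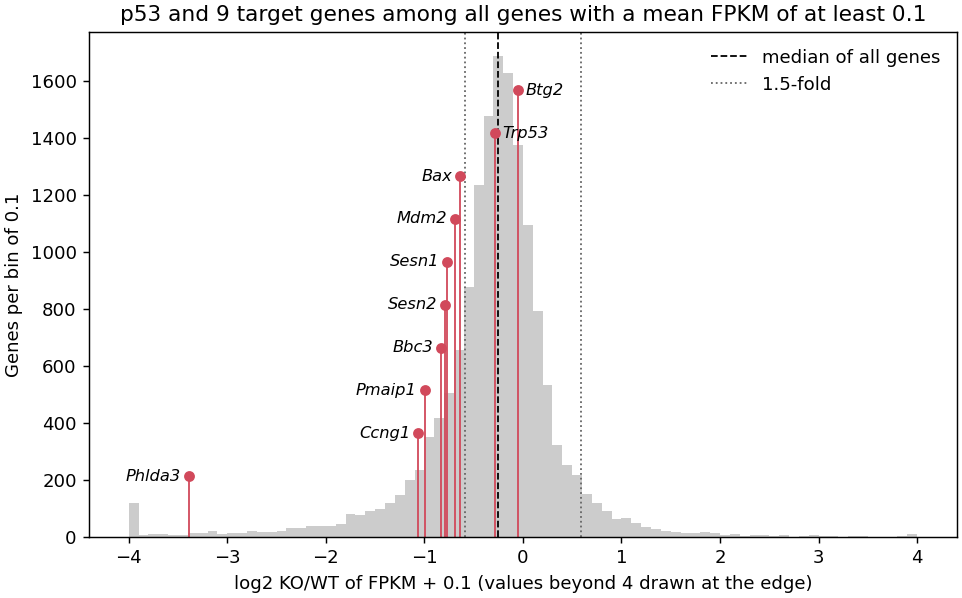
Histogram of log2 KO/WT (x axis, FPKM + 0.1) for 15727 genes averaging 0.1 FPKM or more (y axis, genes per bin), with p53 and 9 target genes as red pins whose heights only separate the names. The dashed line is the median of all genes at -0.25, the dotted lines are 1.5-fold, and 8 pins lie left of the lower dotted line.

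How many of these genes were past the 1.5-fold line depended on the scaling. The 11723 genes averaging 1 FPKM or more had a median of -0.24 on the log2 scale, and after centring on this value 4 of the 10 genes, Phlda3, Ccng1, Pmaip1 and Bbc3, were more than 1.5-fold lower in KO, against 14.2% of all genes. Bbc3 was then at -0.59, next to the line at -0.58. After centring, 8.74% of all genes and still none of the 10 were more than 1.5-fold higher. With equal upper quartiles of both libraries 3 of the 10 genes were past the line, against 14.4% of all genes. The median of the 10 genes was then -0.52 and that of all genes 0.00937. With centring these medians were -0.54 and -0.014. Of all genes past 1.5-fold, 82.3% were lower in KO as deposited and 61.4% with equal upper quartiles. Relative to the centred median, Mdm2 (-0.45), Bax (-0.40), Sesn1 (-0.53) and Sesn2 (-0.55) were lower by less than 1.5-fold. Trp53 was at -0.05, and Btg2 turned to the other direction at 0.18. In all, 9 of the 10 genes lay below the median of expressed genes. Fewer cells of a type and less RNA per cell cannot be told apart in such bulk samples.

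**Figure D3:**
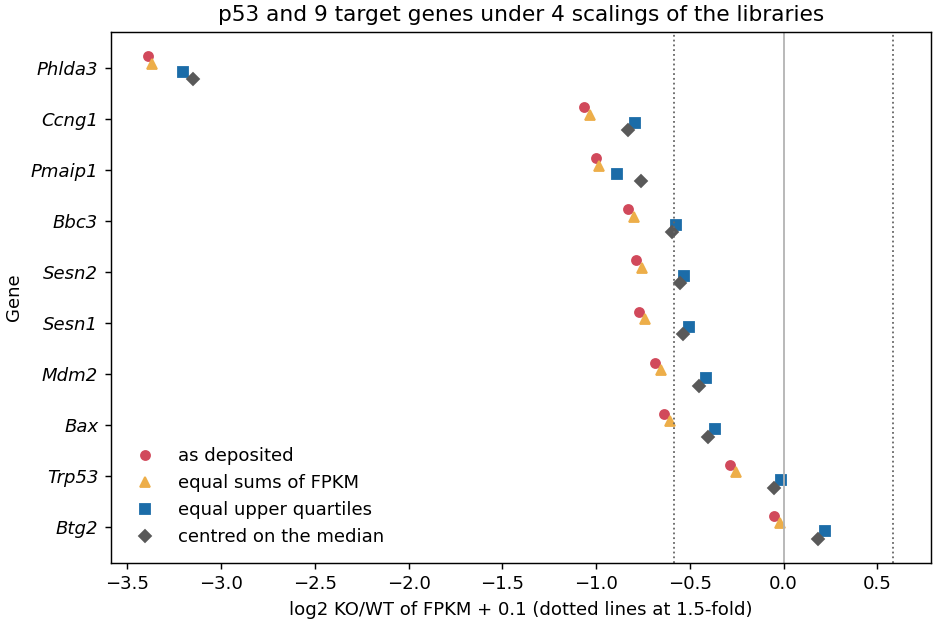
log2 KO/WT (x axis, FPKM + 0.1) of p53 and 9 target genes (y axis) with the libraries as deposited, with equal sums of FPKM, with equal upper quartiles, and centred on the median of expressed genes. Phlda3, Ccng1 and Pmaip1 stay left of the 1.5-fold line at -0.58 under all 4 scalings, whereas Mdm2, Bax, Sesn1, Sesn2 and, with equal upper quartiles, Bbc3 cross it and Btg2 crosses 0.

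Of 20 listed regulators 18 passed the filter, 4 were more than 1.5-fold lower in KO and none was higher by that much, with a median log2 KO/WT of -0.33. The share of lower regulators, 22.2%, was about that of all genes (22.9%) as deposited. With centring it was still 22.2% (4 genes), against 14.2% of all genes. The paralogs Trp63 and Trp73 were listed at 0 in both libraries. The checkpoint kinases that act on p53 after DNA damage had the largest differences. Chek1 had 3.22 FPKM in WT against 0.263 FPKM in KO, a ratio of 12.2 (95% CI 9.19 to 16.4). Chek2 had 3.19 and 0.656, a ratio of 4.86 (95% CI 3.85 to 6.20). Atr, a kinase upstream of Chek1, had 3.73 and 1.82, and its exons overlap annotated genes on the opposite strand, which the library kit does not tell apart. Ppm1d, a phosphatase that ends the p53 response and is itself a target, had 2.54 and 1.35, a ratio of 1.87 (95% CI 1.59 to 2.21). It is counted both here and among the targets for arrest and growth control. The regulator with the highest mean of both libraries was the ubiquitin ligase Rchy1, with 16.0 FPKM in WT against 17.7 FPKM in KO.

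Among 15 further p53 targets for arrest and growth control, 14 passed the filter, 7 were more than 1.5-fold lower in KO (50.0%, against 22.9% of all genes) and none higher by that much, with a median of -0.58. By the mean of both libraries the most abundant was Cdkn1a, which encodes the Cdk inhibitor p21 and is among the best known p53 targets. In contrast to the 10 genes, Cdkn1a was higher in KO, with 33.5 FPKM in WT against 40.4 FPKM in KO, a KO/WT ratio of 1.21 (95% CI 1.15 to 1.26). Ddit4, an inhibitor of mTORC1, had the largest difference of this list, with 7.31 in WT and 1.14 in KO and a WT/KO ratio of 6.43 (95% CI 5.28 to 7.94). The kinase Plk2 had 3.25 FPKM in WT against 1.58 FPKM in KO, a ratio of 2.06 (95% CI 1.78 to 2.41). Zmat3, an RNA-binding protein, had 3.05 and 1.55, a ratio of 1.97 (95% CI 1.79 to 2.16). The rows of Gtse1 and Ak1 in this list are joint with Ttc38 and with Eng, respectively, and neither was past the 1.5-fold line. With centring, 5 genes of the list were more than 1.5-fold lower (35.7%, against 14.2% of all genes) and none higher by that much.

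The list of targets for cell death had 15 genes, of which 9 were more than 1.5-fold lower in KO (60.0%, against 22.9% of all genes) and 1 higher (6.67%, against 4.93%), with a median of -0.78. Siva1 had 8.57 FPKM in WT against 2.43 FPKM in KO, a ratio of 3.53 (95% CI 2.86 to 4.41). Pidd1, the scaffold of a caspase 2 complex, had 2.13 and 0.839, a ratio of 2.54 (95% CI 2.12 to 3.07). Apaf1, the core of the apoptosome, had 1.40 and 0.619, a ratio of 2.26 (95% CI 1.93 to 2.64). The nuclease Aen had 16.8 and 7.47, a ratio of 2.24 (95% CI 2.10 to 2.40). Higher in KO by more than 1.5-fold was the death receptor gene Fas, with 6.98 in WT and 12.4 in KO, a KO/WT ratio of 1.77 (95% CI 1.60 to 1.97). Perp, which was chosen after its values were seen, was also higher in KO, with 44.0 FPKM against 58.6 FPKM, a KO/WT ratio of 1.33 (95% CI 1.28 to 1.38), and it passed the 1.5-fold line after centring (0.65 on the log2 scale). Rps27l, the most abundant gene of the list, had 177 in WT and 122 in KO, which was 1.46-fold lower. A pair of genes averaging below 1 FPKM was chosen after the values were seen. Eda2r, a receptor of the TNF receptor family, had 1.31 FPKM in WT against 0.0269 FPKM in KO, about 345 and 7.56 fragments, a ratio of 48.6 (95% CI 23.1 to 107). Tnfrsf10b, the mouse TRAIL receptor, had 1.11 and 0.117, a ratio of 9.46 (95% CI 6.06 to 15.4). With centring, 7 genes of the list were more than 1.5-fold lower (46.7%, against 14.2% of all genes) and 2 higher (13.3%, against 8.74%).

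Of the 15 targets for DNA repair and metabolism, 4 were more than 1.5-fold lower and 1 was higher in KO, with a median of -0.43. These shares, 26.7% and 6.67%, were near the 22.9% and 4.93% of all genes. With centring, 2 were lower (13.3%, against 14.2% of all genes) and 1 higher (6.67%, against 8.74%). Gls2, the liver glutaminase, had 188 FPKM in WT against 64.5 FPKM in KO, a ratio of 2.91 (95% CI 2.85 to 2.98). Its exons overlap Spryd4 on the opposite strand. Polk, a DNA polymerase that copies past lesions, had 2.23 and 0.971, a ratio of 2.30 (95% CI 1.98 to 2.70). Aldh4a1, an enzyme of proline breakdown, had 160 and 102, a ratio of 1.58 (95% CI 1.55 to 1.60). The rows of Fdxr (1.62-fold lower in KO) and Sco2 (3.41-fold higher in KO) are joint with Fads6 and with Odf3b and Tymp, respectively. Gpx1, the most abundant of the list, had 986 in WT and 990 in KO. Over the 45 targets of the 3 lists, 44 passed the filter, and 20 of these were more than 1.5-fold lower (45.5%, against 22.9% of all genes) and 2 higher (4.55%, against 4.93%). After centring 14 were lower (31.8%, against 14.2%) and 3 higher (6.82%, against 8.74%), and the median moved from -0.53 to -0.29.

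**Figure D4:**
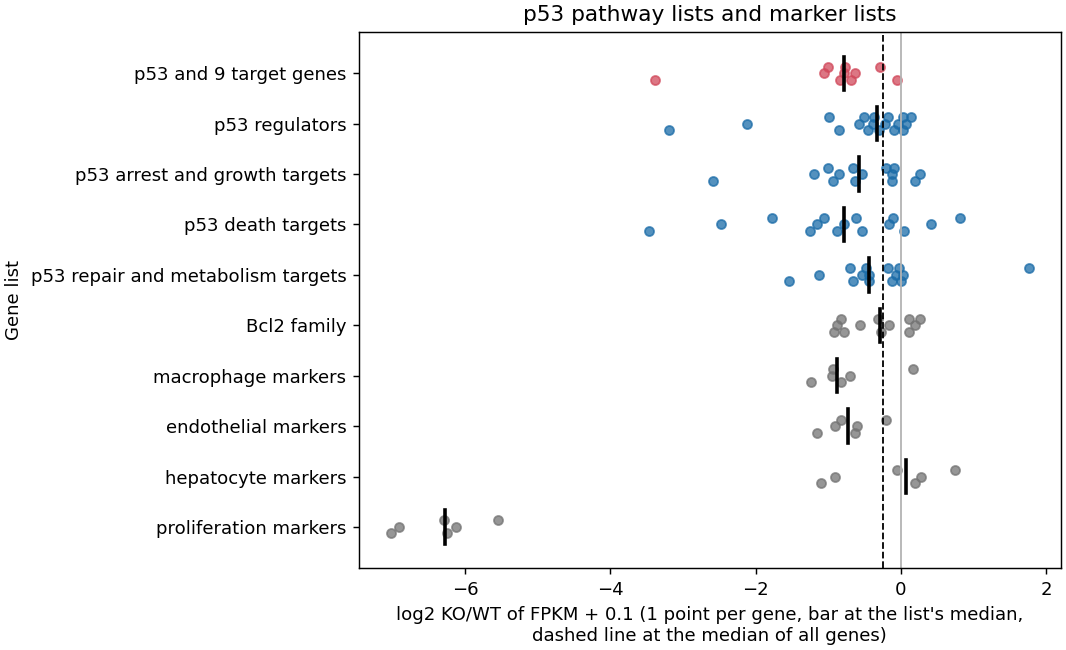
log2 KO/WT (x axis, FPKM + 0.1) of single genes (points) in lists of the p53 pathway and in marker lists (y axis), for genes averaging 0.1 FPKM or more, with a black bar at the median of a list and a dashed line at the median of all genes (-0.25). The medians of p53 and 9 target genes (-0.78) and of the death targets (-0.78) lie between those of endothelial (-0.72) and macrophage markers (-0.88), and proliferation markers lie far to the left (-6.28).

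In the Bcl2 family, 12 of 13 listed genes passed the filter, of which 4 were more than 1.5-fold lower in KO (33.3%, against 22.9% of all genes) and none higher by that much, with a median of -0.29. After centring 2 were lower (16.7%), near the 14.2% of all genes. The lower genes included both inhibitors and promoters of apoptosis. Mcl1, which protects cells from Bax and Bak1, had 48.1 FPKM in WT against 27.2 FPKM in KO, a ratio of 1.77 (95% CI 1.71 to 1.83). Bak1, the functional partner of Bax, had 7.84 and 4.22, a ratio of 1.86. Bid, a BH3-only protein, had 3.27 and 1.86, a ratio of 1.76, and the exons of Bak1 and Bid overlap genes on the opposite strand. Both Bak1 and Bid are also counted among the lower genes of the cell death list. The joint row of Bcl2l2 and Pabpn1 had the highest level, with 52.2 and 43.2.

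All 6 proliferation markers were lower in KO, their median was -6.28 on the log2 scale, with a summed FPKM of 133 in WT and 1.04 in KO. Cdk1, the most abundant, had 41.9 and 0.434. Of the cell type markers that passed the filter, 5 of 6 macrophage, 5 of 6 endothelial, 2 of 3 neutrophil, 2 of 6 stellate, 2 of 5 cholangiocyte, 1 of 4 erythroid and 0 of 4 lymphocyte genes were more than 1.5-fold lower in KO, as were 2 of 6 hepatocyte genes. The share of all genes was 22.9%, and the shares of the erythroid (25%), stellate and hepatocyte (33.3% each) lists lay nearest to it. Higher by that much were 1 hepatocyte and 1 erythroid gene. After centring, 3 macrophage, 3 endothelial, 1 neutrophil, 1 stellate, 2 cholangiocyte and 2 hepatocyte genes were more than 1.5-fold lower, against 14.2% of all genes. No erythroid or lymphocyte gene was. The lymphocyte counts rested on low values and on the pseudocount of 0.1 FPKM. With 0.01 FPKM and no centring, 4 lymphocyte and 3 cholangiocyte genes were more than 1.5-fold lower in KO. The counts of lower genes in the other cell type lists stayed the same, and the share of all genes at 0.01 FPKM was not computed. The row of Clec4g, the most abundant endothelial marker, is joint with Gm9814 and had 21.8 FPKM in WT against 18.9 FPKM in KO. The summed FPKM of the macrophage list, led by Clec4f, was 41.2 in WT and 26.5 in KO, and that of the endothelial list, led by Clec4g, 48.5 and 34.6. It was 12.9 and 6.91 for neutrophils (led by S100a8 in the mean of both libraries), 87.8 and 59.9 for stellate cells (Dcn), 29.8 and 25.7 for cholangiocytes (Spp1), 295 and 252 for erythroid cells (Hba-a1), and 1.31 and 0.835 for lymphocytes (Ptprc). Of the neutrophil markers 3, Ly6g, Mpo and Camp, were listed at 0 in both libraries. Serpina1a, the hepatocyte marker with the highest mean of both libraries, had 3337 in WT and 4039 in KO. The part of proliferating cells and of cells other than hepatocytes in the lower values of the p53 targets was not tested.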

How the data were processed

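Hepatic RNA of 2 libraries, 1 WT and 1 KO, was analysed. The time after PH was taken from the paper, since the labels do not give it. Alignment was by TopHat 2.0.0 on mm9 and assembly by Cufflinks 1.3.0, per the submitters' processing notes and the paper's methods, and the authors made the deposited FPKM values, 1 per locus and library, with Cuffdiff. Use of quartile normalization is not stated. The paper's methods name single end and the labels paired end reads. The authors' columns of fold change, statistic, p-value, q-value and significance were not used. The 21 loci marked HIDATA were left out, rows of a symbol were summed, and the 850 loci that name several symbols gave their value to each. Coordinates are those of the loci, counted from 1, on the build of GENCODE vM1 (NCBIM37), which gave transcript lengths and exons.

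Log2 ratios used a pseudocount of 0.1 FPKM. With 1 library per genotype no test was run, and ratios have exact Clopper-Pearson intervals on estimated fragments. Alternatives covered the pseudocount, the filter, the scaling, the fold line, repeated and joint rows and the transcript length.

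Depth was estimated as the most frequent value of FPKM times length among 25 low values per library, from 449 single-exon genes of 1500 to 4000 bases. An FPKM of 1 on 1 kb was worth about 55.5 (WT) and 59.1 (KO) fragments. Tools were scipy 1.17.1, pandas 2.3.3, numpy 2.4.6 and matplotlib 3.10.9 under Python 3.11.15. The log2 ratios, their median and the intervals were tested on simulated counts, with the estimated depths taken as given. The depth estimate, the scalings and the response element search were not part of that test. The 10 genes and the lists were chosen with earlier results of these data known. Named were the 10 genes, Ppard, from each other p53 list and the Bcl2 family the genes past 1.5-fold with a mean FPKM of at least 1 (at most 4 per direction) and the gene with the highest mean of both libraries, and from each marker list the latter alone. No gene was sought for a pattern like that of the 10, since 2 libraries give 1 ratio per gene. The response element search was added after the files were seen.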

Additional observations from a re-analysis of the deposited data

How the results depend on the processing

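The count of 8 genes lower in KO by more than 1.5-fold among p53 and 9 targets was 5 with a pseudocount of 1 FPKM, 3 with equal upper quartiles, 4 after centring and 2 at a line of 2-fold, and it was 7 or 8 under the other alternatives. The count of higher genes was 0 throughout, and the median log2 KO/WT ranged from -0.81 to -0.52. For the 45 other targets, the count of 20 lower genes was 10 at 2-fold, and that of 2 higher genes was 1 at 2-fold and 1 without joint rows. Phlda3 ranged from -3.90 to -1.70, and Pmaip1 from -1.70 to -0.20, each nearest to 0 with a pseudocount of 1 FPKM. Btg2 turned to 0.22 with equal upper quartiles and to 0.18 after centring. Of the values of single genes and other lists, 462 stayed within their counting interval, the order-statistics interval of their median or 1.5 times their count, and 70 did not. The 462 include the shortest transcript as a setting for each of the 10 genes, which cannot change a log2 ratio. Taking the shortest protein-coding transcript moved no interval across 1. Depth limits the ratios of Pmaip1 and Phlda3, which rest on 9.73 and 15.4 estimated fragments in KO. No leave-one-out value exists, since either genotype would lose its only library. No paired analysis was possible because the labels give no pairing of the libraries.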
